A study of Homo sapiens with 10 samples.

Results

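A549, an established line of human lung adenocarcinoma cells, was treated with DRB (dichloro-ribofuranosylbenzimidazole) at 25 μg/mL or at 10 μg/mL, and the 2 doses were compared directly with each other. The comparison takes the 2 libraries labelled with the higher dose (DRB 25) and the 2 labelled with the lower dose (DRB 10), which makes 4 of the 10 libraries of the series. The 2 libraries of cells given DMSO, the solvent, were used for the spread of the fits and to see which way each dose went, and the remaining 4 libraries, of cells given amanitin at 1 or 2 μg/mL, entered only an alternative fit. All of these are poly(A)+ RNA libraries of unmodified cells of 1 line. The sources do not state how long DRB and DMSO were applied, nor whether the replicates of a group were separate cultures, so the p-values cover only the spread among these libraries, which may be technical. The question was which genes, exons and introns respond only to the higher dose and which turn direction between the doses.

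DRB is an inhibitor of CDK9, the kinase of P-TEFb, and of some other kinases. After initiation, RNA polymerase II pauses near the start of most genes, held by the factors NELF and DSIF, and P-TEFb phosphorylates these factors and the polymerase to let it into productive elongation. When new synthesis falls, short-lived mRNAs are known to be lost first, whereas stable ones such as those of ribosomal proteins make up a larger part of what is left. Because most splicing takes place while the polymerase is still moving, elongation and the supply of splicing factors are both known to influence which exons are included.

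For each intron the deposited lines give split reads, which join its donor to its acceptor, and unspliced reads, which run across one of these sites. For each exon they give reads that include it, reads that skip it and the inclusion level Ψ, the part of the junction evidence that supports inclusion. Split reads over all introns of a gene were summed to give its gene sum, expressed below in CPM, that is relative to all split reads of the library, after TMM scaling. Library by library, 2899344 and 5175747 split reads were counted at DRB 25, against 3945772 and 4929783 at DRB 10 and 4297890 and 4765752 in DMSO. The DRB 25 libraries stood apart from the others. They listed 45513 and 60620 introns, against 78488 and 84917 at DRB 10 and 74739 and 75422 in DMSO, and the 100 genes with most reads took 38.6% and 38.4% of their split reads, against 21.4% and 20.9% at DRB 10 and 24.9% and 25.1% in DMSO. The unspliced share of the reads at annotated introns was 4.38% and 4.12% at DRB 25, against 3.22% and 2.59% at DRB 10 and 2.63% and 2.53% in DMSO. In bulk RNA fewer surviving cells and less RNA per cell cannot be told apart, and every difference below is relative to the rest of its library. Of 10 A549 markers, 5 were listed in all 4 DRB libraries and 3 (KRT19, EPCAM and CDH1) in none. Marker values are given here as CPM scaled to total split reads, without TMM. The A549 sum was 5571 and 5348 CPM at DRB 25, against 3837 and 4100 at DRB 10 and 6083 and 5614 in DMSO. TMM scaling would divide by 0.830 and 0.733 at DRB 25, 1.17 and 1.20 at DRB 10 and 1.07 and 1.09 in DMSO. That would raise the DRB 25 sums relative to DMSO, so their order depends on the scaling. ALDH1A1 and NQO1 made up most of the A549 sum. KRT18 was lower in both DRB 25 libraries than in both DRB 10 libraries. AKR1B10 was listed at 0 and 0 at DRB 25, against 28.9 and 47.1 at DRB 10. The 4 endothelial markers were at 0, COL1A1 was the only one of 6 fibroblast markers listed, at up to 24.1 CPM in the DRB libraries, and leukocyte markers summed to at most 3.1.

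A limit of the files bears on each gene sum. In every library the listed introns had at least 11 reads at their sites in all, so that an intron with up to 10 reads can be missing and its reads are then absent from the gene sum. The sum of SMC3, which encodes a subunit of the cohesin ring, was 0 at DRB 25 although exons of the gene were listed there. Gene results are therefore given in 3 ways. The first uses all listed introns. The second uses only the 30683 introns listed in each of the 6 libraries, where this limit does not act, although it leaves out the introns that fell below the minimum. The third, chosen after the data were seen, gives every unlisted intron the most reads it could hold at the dose with fewer reads. A call of DRB 25 against DRB 10 that passes this is said below to hold at the listing limit.

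Of 9512 genes tested, 1866 (19.6%) were higher and 4152 (43.7%) were lower at DRB 25 than at DRB 10 (63.3% in either direction, limma, Benjamini-Hochberg adjusted p below 0.05). Over the introns common to the libraries, 1446 of 4729 genes (30.6%) were higher and 1603 (33.9%) lower, and 1360 and 1062 genes were called in the same direction in both fits. At the listing limit 1576 genes (16.6%) remained higher and 770 (8.1%) remained lower. Of the genes called lower, 2035 were listed at 0 in both DRB 25 libraries, and 38 of these held at the limit. The rises thus rest far less on unlisted introns than the falls. The median over all genes was a log2 fold change of −1.21 with all introns and −0.099 with the common ones. Scaled to total split reads instead of TMM, it was −1.82, and 1218 genes were higher and 5513 lower, so that rises made up 18.1% of the called genes there and 31.0% with TMM. Without replicate 1 of DRB 25 there were 1720 rises and 1665 falls, and without replicate 2 of DRB 25 there were 1368 and 1200.

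The highest rise over the common introns was in NOCT (chr4:139936935-139967093, GRCh37), which encodes the circadian protein nocturnin, with 115 and 91.3 CPM at DRB 25, against 6.12 and 4.08 at DRB 10 and 3.04 and 3.21 in DMSO, over 1 intron. KLF6 (chr10:3818188-3827473), a zinc finger transcription factor, had 506 and 281 CPM at DRB 25, against 26.7 and 24.0 at DRB 10 and 19.9 and 21.5 in DMSO (log2 fold change 3.89 ± 0.24 SE, limma adjusted p = 6.06e-10). Neither gene passed the test at DRB 10 against DMSO, and both were many times higher at DRB 25. GADD45A (chr1:68150884-68154017), a growth arrest gene induced by DNA damage, had 686 and 765 at DRB 25, against 73.7 and 60.8 at DRB 10 and 24.4 and 30.4 in DMSO (3.44 ± 0.16), and FOSL1, a subunit of the AP-1 factor, had 683 and 657, against 68.4 and 62.6 at DRB 10 and 21.0 and 38.3 in DMSO (3.36 ± 0.19). Over the common introns these 2 had risen at DRB 10 against DMSO as well, by 1.29 and 1.19 (log2). CCN1, which encodes a matrix protein induced by growth factors, had 2810 and 2442 at DRB 25, against 334 and 212 at DRB 10 and 262 and 224 in DMSO (3.30 ± 0.18). MYC, the short-lived transcription factor of cell growth, had 367 and 360 at DRB 25, against 53.9 and 43.1 at DRB 10 and 32.4 and 32.3 in DMSO (2.92 ± 0.16). The 15 highest rises, taken among genes whose doses do not overlap, also held AMIGO2, FRMD6, AEN, SMAD7, MAFG, C12orf75, RPL22L1, ZNF408 and NFKBIZ, with log2 fold changes between 2.84 and 4.33. These and the following common-intron examples were chosen by the same ranking as the genes with all introns, after the values were seen.

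The largest fall over the common introns was in HSPA8 (chr11:122928197-122933938), the constitutive cytosolic chaperone of the HSP70 family, which had 178 and 201 CPM at DRB 25, against 2292 and 2513 at DRB 10 and 1670 and 2606 in DMSO (log2 fold change −3.66 ± 0.18 SE, limma adjusted p = 1.40e-10). PCNA (chr20:5095599-5107272), the sliding clamp of DNA polymerases, had 31.0 and 38.3 at DRB 25, against 303 and 328 at DRB 10 and 359 and 372 in DMSO (−3.17 ± 0.18). BUB3, of the spindle checkpoint, had 21.3 and 23.0 at DRB 25, against 159 and 170 at DRB 10 and 193 and 227 in DMSO (−2.87 ± 0.19). In each of these genes the lower dose left the level within 0.4 (log2) of DMSO, and the higher dose brought it far below. PTGES3, a cochaperone of HSP90, had 84.3 and 122 at DRB 25, against 685 and 763 at DRB 10 (−2.81 ± 0.17), and ECT2, which directs the cleavage furrow in cytokinesis, had 38.0 and 26.2, against 191 and 227 (−2.75 ± 0.21). The other 10 of the 15 largest falls were MRPL2, TMPO, GPATCH4, TOR1AIP2, NUP37, BUB1, DDX17, TFG, APEX1 and PWP1. Of the 15, TOR1AIP2, measured on 1 common intron, did not pass the test with all introns (−0.06, adjusted p = 0.852).

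**Figure D1:**
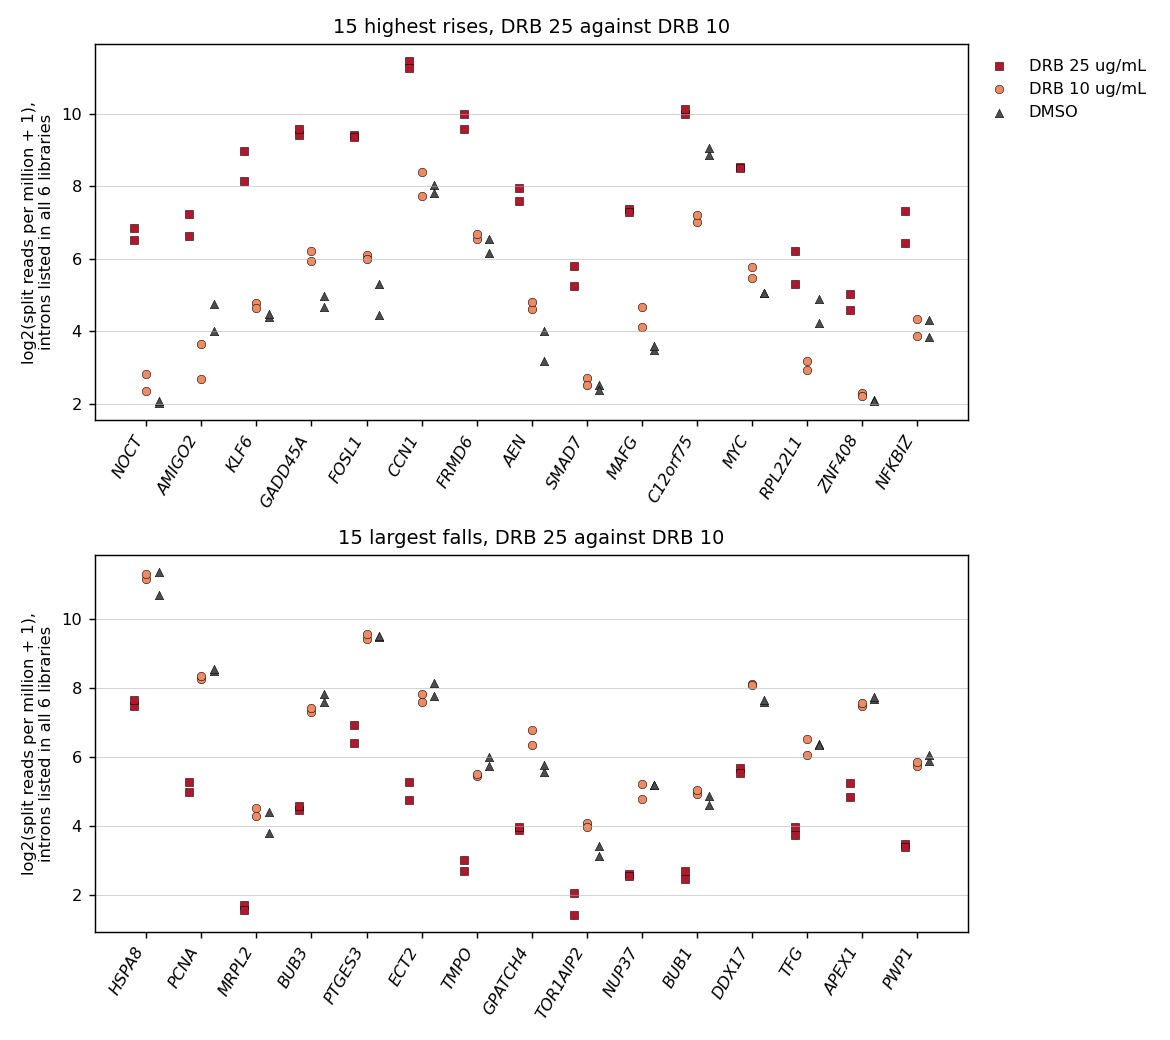
CPM over the introns listed in all 6 libraries, as log2(value + 1), for the 15 highest rises (upper panel) and the 15 largest falls (lower panel); each symbol is 1 library, with DRB 25, DRB 10 and DMSO from left to right for each gene. Genes were taken only where the libraries of the doses do not overlap, and HSPA8 stands at 178 and 201 at DRB 25 against 2292 and 2513 at DRB 10.

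Ranking by all listed introns brought up genes listed at 0 at 1 of the doses, for which only a lower bound of the change can be given. The 15 highest rises of that ranking were each at 0 at DRB 10 and in DMSO. APOE, the apolipoprotein of lipid transport, had 62.9 and 63.0 CPM at DRB 25 and was at least 8.05-fold higher than at DRB 10. NECTIN4, a cell adhesion molecule, was at least 5.14-fold higher, NOTCH3, a receptor of the Notch pathway, with 133 and 145 CPM at DRB 25, at least 2.64-fold, and PLB1, with 230 and 157 spread over 55 introns, at least 1.80-fold. The other 11 were ABCA4, ADAMTSL4-AS2, CRTAM, STARD13, BTK, VIT, SDCBP2, ARHGAP30, PHKG1, IDI2-AS1 and SLC2A5, of which ABCA4 and IDI2-AS1 did not hold at the listing limit. The 15 largest falls were each at 0 at DRB 25. Among them, NASP, a histone chaperone, had 259 and 228 CPM at DRB 10 and was at least 3.53-fold lower at DRB 25, GCLC, which makes glutathione, at least 3.67-fold, SMC3 at least 2.71-fold and KIF11, a spindle motor, at least 2.54-fold. For RNF213, USP24 and UTP20 the bounds were 1.02, 1.00 and 0.823, so that reads under the listing minimum could account for all or nearly all of the difference. The remaining 8 were MTOR, PDS5A, TTK, NDC80, USP9X, ATAD2, RFC1 and MCMBP, with bounds between 1.12 and 2.75, and of these MTOR and USP9X did not hold at the listing limit.

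Genes were then grouped into 29 lists of pathways and complexes, whose gene sums are given in CPM over all listed introns. Of 85 cytosolic ribosomal protein genes measured, 80 were higher and 2 lower at DRB 25, against 19.6% and 43.7% of all genes, with a median log2 fold change of 1.58 over the list, and all 80 held at the listing limit. Together they held 266000 and 325000 CPM at DRB 25, against 101000 and 94800 at DRB 10 and 117000 and 119000 in DMSO. RPS12 had 7875 and 9196 at DRB 25, against 1735 and 1778 at DRB 10 (2.29 ± 0.10), and RPSA, which is also known as the laminin receptor, had 5468 and 5757, against 1153 and 1259 (2.22 ± 0.09). The 2 lower members are RPL39L and RPL7L1, both paralogs of ribosomal protein genes, RPL7L1 having 8.44 and 21.7 at DRB 25, against 85.2 and 87.9 at DRB 10 (−2.61 ± 0.47, or −1.66 at the listing limit). Many genes of this family have near-identical processed pseudogenes to which reads can also align, so that single values are uncertain.

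Of 75 genes of oxidative phosphorylation, 52 were higher and 6 lower, with a median of 1.22, and 50 and 3 held at the listing limit. NDUFB8, a subunit of complex I, had 330 and 374 CPM at DRB 25, against 81.1 and 77.4 at DRB 10 (2.16 ± 0.16), and ATP5F1E, of the ATP synthase, had 788 and 856, against 193 and 200 (2.07 ± 0.10). A catalytic subunit went the other way. SDHA, the flavoprotein of complex II, which has near-identical pseudogene copies, had 10.98 and 57.1 at DRB 25, against 292 and 304 at DRB 10 (−3.32 ± 0.56, or −1.93 at the listing limit). Of 76 genes of mitochondrial ribosomal proteins, 6 (7.89%) were higher and 38 (50.0%) lower, against 19.6% and 43.7% of all genes. Their median of −1.17 was near that of all genes (−1.21), unlike that of the cytosolic ribosomal proteins. At the listing limit 5 (6.58%) and 22 (28.9%) remained, against 16.6% and 8.1% of all genes.

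Of 34 immediate early and short-lived transcripts, 21 were higher and 5 lower, with a median of 1.91, and 21 and 1 held at the listing limit. They summed to 6880 and 5860 CPM at DRB 25, against 1260 and 952 at DRB 10 and 1020 and 966 in DMSO. Beside KLF6, FOSL1 and MYC, the list held MAFF, a small MAF factor, with 114 and 111 at DRB 25, against 1.98 and 0 at DRB 10 (8.18 ± 1.61, or 3.50 at the listing limit), and ATF3, a stress-induced factor, with 45.2 and 45.3, against 2.64 and 4.97 (3.60 ± 0.39, or 2.29 at the listing limit). MCL1, the short-lived survival protein of the BCL2 family, had 158 and 140, against 47.7 and 47.8 (1.62 ± 0.17, 0.88 at the listing limit and 0.66 over 2 common introns). ID3, an inhibitor of differentiation factors, was the exception that held at the listing limit, with 39.7 and 48.8 at DRB 25, against 90.7 and 72.6 at DRB 10 (−0.82 ± 0.24). The medians of these 3 rising lists stayed positive when scaled to total split reads, at 0.97 for cytosolic ribosomal proteins, 0.62 for oxidative phosphorylation and 1.27 for immediate early transcripts.

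Stress lists were mixed, beside 19.6% higher and 43.7% lower over all genes. Of 27 targets of NRF2, the factor of the oxidative stress response, 13 were higher and 5 lower with TMM scaling, and 8 and 8 when scaled to total split reads, where the median of the list was −0.13 instead of 0.51. HMOX1, heme oxygenase, had 1622 and 1922 CPM at DRB 25, against 245 and 278 at DRB 10 and 133 and 129 in DMSO (2.77 ± 0.13), and FTH1, the ferritin heavy chain, had 14050 and 12590, against 3707 and 3322 (1.92 ± 0.09). GCLC was lower, as given above. Less the median of all genes, the median of the NRF2 list was 1.72 with TMM and 1.69 with total split reads. A change of scaling moves all genes by nearly the same amount, so this difference could hardly move. Over the common introns it was 0.56, with 12 of 23 NRF2 targets higher and 5 lower. Of 28 targets of p53, 10 were higher and 6 lower (7 and 10 when scaled to total split reads, with the median at −0.44 instead of 0.19), and CDKN1A, the p21 cell cycle inhibitor, had 212 and 325 at DRB 25, against 52.1 and 42.1 at DRB 10 and 8.80 and 12.7 in DMSO (2.55 ± 0.29, or 1.57 over 2 common introns). Less the median of all genes, the median of the p53 list was 1.4 with TMM and 1.38 with total split reads, which again could hardly differ. Over the common introns the direction was the opposite, with 4 of 17 p53 targets higher and 7 lower. The list median there was −0.34, or −0.24 less the median of all genes. Of 19 cytosolic heat shock genes, 5 were higher and 8 lower. HSP90AA1 had 7861 and 8334 at DRB 25, against 3054 and 4323 at DRB 10 (1.15 ± 0.24), opposite to HSPA8 and to its cochaperone DNAJA1, which had 34.2 and 58.2 at DRB 25, against 179 and 263 at DRB 10 (−2.18 ± 0.57).

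The falls were most frequent among genes of cell division. Of 35 mitotic spindle and kinetochore genes, 30 were lower and 1 higher, with a median of −2.77, and 22 and 1 held at the listing limit. They summed to 1500 and 1900 CPM at DRB 25, against 5580 and 6030 at DRB 10 and 7550 and 8560 in DMSO. TOP2A, the topoisomerase of chromosome segregation, had 75.1 and 152 at DRB 25, against 581 and 636 at DRB 10 and 1245 and 1409 in DMSO (−2.40 ± 0.28), CCNB1, cyclin B1, had 64.6 and 79.6, against 204 and 244 (−1.60 ± 0.26), and PLK1, a mitotic kinase, had 18.2 and 22.2, against 116 and 128 (−2.58 ± 0.34, or −1.69 at the listing limit). The exception was BIRC5, survivin, with 149 and 170 at DRB 25, against 98.6 and 97.0 at DRB 10. Without replicate 1 of DRB 25 the mitotic list had 22 falls, and without replicate 2 of DRB 25 it had 16. Of 44 DNA replication genes, 30 were lower and 5 higher, of which 13 and 4 held at the listing limit. MCM3, of the replicative helicase, had 166 and 152 at DRB 25, against 374 and 343 at DRB 10 (−1.18 ± 0.11). Without replicate 1 of DRB 25 this list had 22 falls and 7 rises, and without replicate 2 it had 14 and 1.

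The machinery that DRB acts on and the processing of transcripts changed gene by gene. Of 30 pause release and elongation factors, 7 were higher and 17 lower, but only 6 and 5 held at the listing limit. CDK9, the target kinase itself, had 130 and 137 CPM at DRB 25, against 65.5 and 50.9 at DRB 10 and 35.9 and 40.3 in DMSO (1.24 ± 0.17). Its DRB 10 libraries lay between those of DMSO and DRB 25. CTR9, a subunit of the PAF complex that travels with the polymerase, had 14.8 and 32.4, against 156 and 185 at DRB 10 (−2.85 ± 0.40, or −1.02 at the listing limit), and its partners CDC73 and LEO1 were lower too, with log2 fold changes of −1.27 and −1.02 at the listing limit. Mediator (19 of 31 lower, 1 at the listing limit), Integrator (11 of 14 and 2) and chromatin remodelers (16 of 27 and 1) had many falls that unlisted introns could account for. Their shares lower were 61.3%, 78.6% and 59.3%, against 43.7% of all genes. Zinc finger genes were lower less often than all genes (54 of 167, 32.3%), and 1 held at the listing limit. Cleavage and polyadenylation factors kept more, with 13 of 20 lower and 8 at the listing limit. XRN2, the exonuclease of termination, had 66.7 and 121 at DRB 25, against 379 and 399 at DRB 10 (−2.01 ± 0.24), while CLP1 had 51.5 and 61.4, against 13.6 and 9.25 (2.38 ± 0.33, or 1.71 over its common introns).

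Splicing factors split by family member. Of 13 SR proteins, which bind exons and favour their inclusion, 5 were lower and 4 higher, and 5 and 3 held at the listing limit. SRSF3 had 92.03 and 102 CPM at DRB 25, against 317 and 373 at DRB 10 and 556 and 665 in DMSO (−1.82 ± 0.20), and SRSF7 had 78.1 and 87.1, against 182 and 226 at DRB 10 and 480 and 634 in DMSO (−1.29 ± 0.27). Both were also lower at DRB 10 than in DMSO. Of 24 hnRNP genes, whose proteins often repress exons, 8 were higher and 8 lower. HNRNPL had 924 and 966 at DRB 25, against 231 and 190 at DRB 10 and 696 and 666 in DMSO (2.18 ± 0.12), and HNRNPA2B1 had 2741 and 3466, against 737 and 831 at DRB 10 and 2555 and 2511 in DMSO (1.99 ± 0.14). Both were lowest at the lower dose. SYNCRIP had 179 and 210 at DRB 25, against 491 and 501 at DRB 10 (−1.34 ± 0.11). For all lists the shares over all genes are 19.6% higher and 43.7% lower. With all listed introns, near the latter lay the core spliceosome (35.9% lower), aminoacyl-tRNA synthetases (45.0%), cholesterol genes (41.7%), interferon-stimulated genes (41.2%) and nonsense-mediated decay factors (50.0%). At the listing limit their shares lower were, in this order, 28.2%, 40.0%, 4.17%, 11.8% and 11.1%, against 8.1% of all genes. Over the common introns 19 of 37, 11 of 20, 4 of 14, 2 of 5 and 10 of 15 were lower, against 33.9% of all genes. Of the remaining lists, snoRNA host genes had 8 of 18 higher and 2 lower, the proteasome 14 of 34 and 7, BCL2 family genes 4 of 14 and 3, the unfolded protein and integrated stress response 11 of 29 and 8, splicing kinases and cyclins 4 of 13 and 3, NF-kB targets 4 of 22 and 2, RNA polymerase II subunits 4 of 12 and 3, the core spliceosome 10 of 39 and 14, aminoacyl-tRNA synthetases 4 of 20 and 9, cholesterol genes 4 of 24 and 10, interferon-stimulated genes 4 of 17 and 7, and nonsense-mediated decay factors 1 of 18 and 9. Scaled to total split reads, rises became rarer and falls more frequent in most lists, with 7 hnRNP genes higher and 15 lower, 0 and 8 SR proteins, 6 and 16 proteasome genes, 3 and 29 core spliceosome genes, 9 and 13 genes of the unfolded protein and integrated stress response, 3 and 7 BCL2 family genes, 3 and 6 RNA polymerase II subunits, 6 and 7 snoRNA hosts, 4 and 6 NF-kB targets and 1 and 3 splicing kinases and cyclins, and the list medians turned negative for the proteasome (−0.34 instead of 0.27), snoRNA hosts (−0.32 instead of 0.29), NF-kB targets (−0.47 instead of 0.17) and splicing kinases and cyclins (−0.03 instead of 0.60). With this scaling 1218 of all 9512 genes were higher and 5513 lower, and the median over all genes was −1.82 instead of −1.21. A change of scaling moves all genes by nearly the same amount. The medians of the lists that turned negative, taken less that median, could therefore hardly move. They were 1.48 with TMM and 1.47 with total split reads for the proteasome, and 1.5 and 1.5 for snoRNA hosts. For NF-kB targets they were 1.38 and 1.35, and for splicing kinases and cyclins 1.81 and 1.79. Over the common introns they were smaller, at 0.09 for the proteasome, 0.12 for snoRNA hosts, 0.09 for NF-kB targets and 0.44 for splicing kinases and cyclins. The lists were chosen with earlier results of these data known, so their direction is a description.

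**Figure D2:**
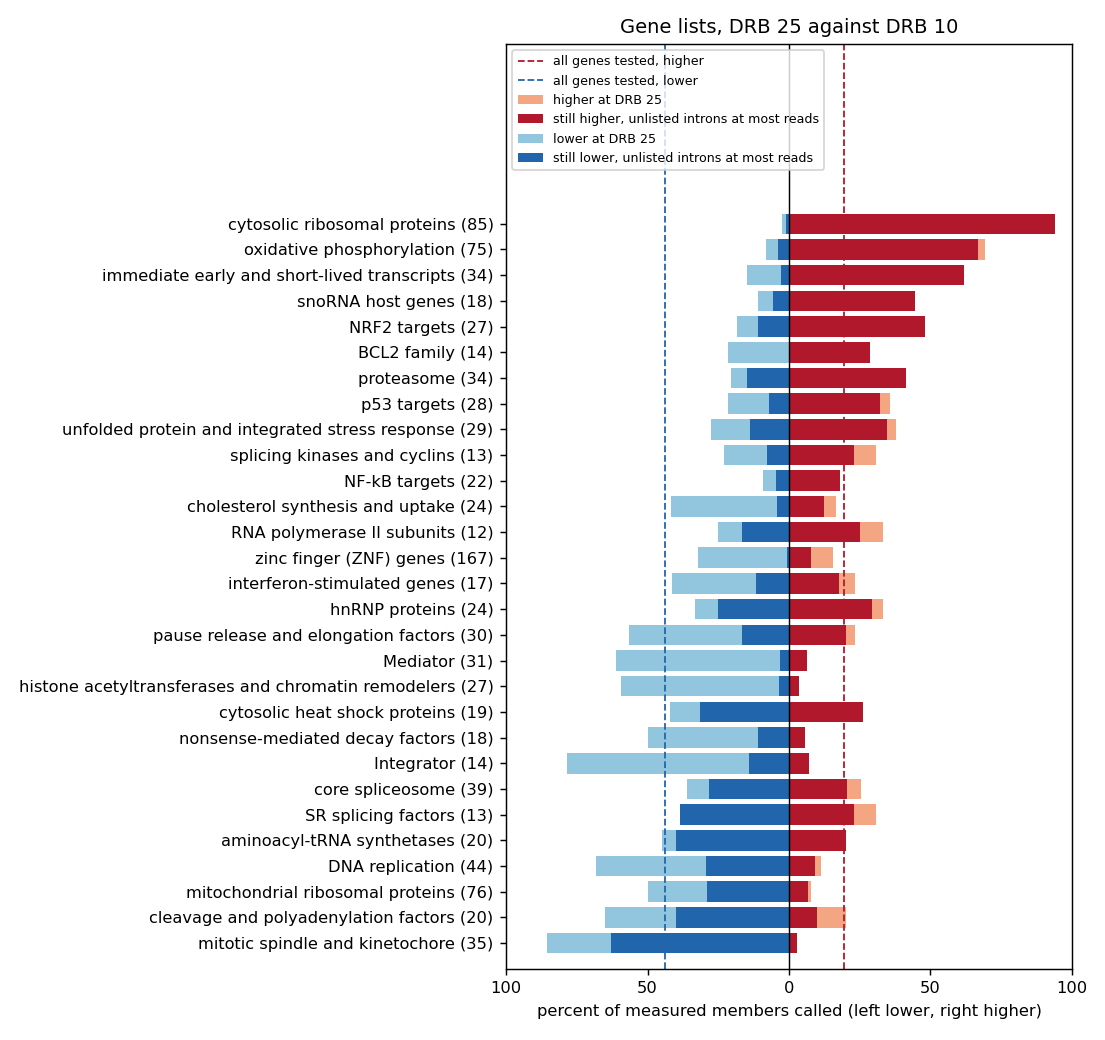
Percent of the measured members (number in brackets) of each gene list called higher (to the right) or lower (to the left) at DRB 25 than at DRB 10; pale bars give the calls with all listed introns, dark bars those that held with unlisted introns at their most reads, and dashed lines the percents over all genes tested (19.6% and 43.7%). The ribosomal protein list stands at 80 of 85 higher and the mitotic list at 30 of 35 lower, 22 of them in dark.

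Calls went with gene length, in a way that depended on how unlisted introns were treated. Of 576 protein-coding genes shorter than 5 kb, 35.6% were higher and 24.1% lower at DRB 25. Of 1731 genes of 50 to 100 kb, 13.9% were higher and 52.5% lower, and of 548 genes of 200 kb or more, 14.2% and 53.1%. At the listing limit the rises still became rarer with length, with 32.5%, 11.7% and 10.9% in these 3 classes, while the falls held in 6.08%, 8.15% and 3.47%. Long genes had fewer reads per intron to lose before an intron dropped off the list, with a median in DMSO of 39.0 in the shortest and 12.9 in the longest class, and 15.6% and 38.9% of them were listed at 0 at DRB 25. Over the common introns, 48.0% of the shortest class, 23.5% of the class of 50 to 100 kb and 33.1% of the longest class were higher, and 22%, 39.7% and 26.3% were lower. There the share of falls was larger in each length class up to 100 kb than in the one before it, and smaller in the 2 classes above, while the share of rises was smallest at 50 to 100 kb.

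**Figure D3:**
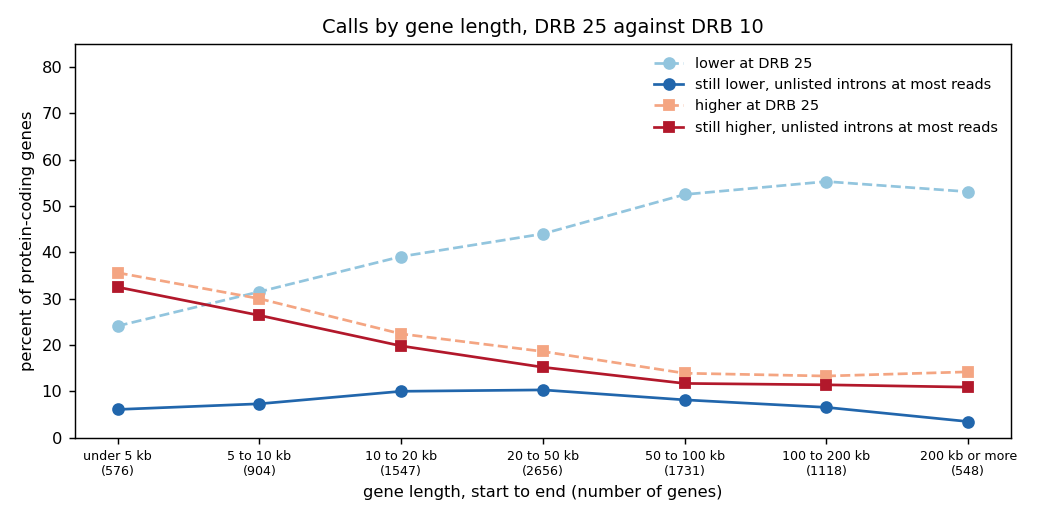
Percent of protein-coding genes called lower (circles) or higher (squares) at DRB 25 than at DRB 10 by gene length class, with the number of genes under each class; dashed pale lines give calls with all listed introns and solid dark lines those that held with unlisted introns at their most reads. The dashed line of falls lies at 24.1% in the shortest and 53.1% in the longest class, while the solid one stays between 3.47% and 10.3%.

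Genes were next sorted by dose. A gene was counted as responding only to the higher dose when DRB 25 differed from both DRB 10 and DMSO in the same direction while DRB 10 did not pass the test against DMSO and lay within 0.5 (log2) of it. The 3 contrasts share libraries. By this rule 2897 genes (30.5% of those tested) responded only to the higher dose, 918 upwards and 1979 downwards. Of these, 794 and 519 held at the listing limit for DRB 25 against DRB 10, while the contrasts with DMSO were not tested there. Over the common introns the rule took 687 and 883 of 4729 genes, and 594 and 551 genes were taken in both fits. Of the 85 cytosolic ribosomal protein genes 65 belong here, such as RPLP1 with 10660 and 11280 CPM at DRB 25, against 2915 and 2502 at DRB 10 and 3036 and 2816 in DMSO. Against DMSO, 1938 genes were higher (20.4%) and 3903 lower (41.0%) at DRB 25, whereas 790 (8.31%) and 632 (6.64%) were at DRB 10.

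A further 431 genes (4.53%) turned direction, meaning that DRB 10 differed from DMSO one way and DRB 25 lay on the other side of DMSO. Of these, 299 passed DMSO by the test as well. Over the common introns 595 genes turned and 355 passed DMSO, and 144 genes did so in both fits, of which 126 were low at DRB 10 and high at DRB 25. With all introns, 11 cytosolic ribosomal protein genes, RPSA among them, and 10 genes of oxidative phosphorylation, NDUFB8 among them, belonged here. C12orf75 (chr12:105629068-105789875) had 1013 and 1123 CPM of common introns at DRB 25, against 128 and 147 at DRB 10 and 467 and 533 in DMSO (25 against 10: 2.96 ± 0.15). IGFBP4, a binding protein of insulin-like growth factors, had 939 and 724 at DRB 25, against 174 and 128 at DRB 10 and 705 and 481 in DMSO (2.46 ± 0.19). TMSB10, an actin-binding thymosin, had 3921 and 4675, against 852 and 838 at DRB 10 and 1652 and 1726 in DMSO (2.34 ± 0.14), and its relative TMSB4X had 1784 and 1821, against 366 and 368 at DRB 10 and 891 and 885 in DMSO (2.30 ± 0.13). In each of these the lower dose cut the level well below DMSO and the higher dose exceeded it. COL18A1, a basement membrane collagen measured over 39 common introns, had 1849 and 1766 at DRB 25, against 390 and 335 at DRB 10 and 649 and 564 in DMSO (2.32 ± 0.14). ZDHHC2, NME4, MT2A, ITGB5 and IFITM1 followed the same course.

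The 18 genes that turned downwards in both fits were high at DRB 10. DDX17, an RNA helicase of splicing and transcription, had 50.96 and 45.2 CPM of common introns at DRB 25, against 277 and 273 at DRB 10 and 192 and 201 in DMSO (−2.52 ± 0.16). LRPPRC, which stabilizes mitochondrial mRNAs, had 344 and 345, against 1382 and 1433 at DRB 10 and 877 and 826 in DMSO (−2.03 ± 0.14), and UBTF, a factor of ribosomal RNA transcription, had 33.4 and 29.4, against 125 and 146 at DRB 10 and 72.8 and 61.5 in DMSO (−2.12 ± 0.19). The group also held CCAR1, GTF2H3, IMP4, ELOVL1, STARD7, MARCHF6 and HERC2, the last of which did not hold at the listing limit. The count of turning genes varied with the libraries used, from 0 without either DMSO or either DRB 10 library to 660 without replicate 1 of DRB 25.

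At the level of exons, calls of less inclusion outnumbered those of more inclusion, but the way exons entered the test bears on this balance. Of 10875 exons tested, 754 (6.93%) were included more and 4024 (37.0%) less at DRB 25 than at DRB 10 (43.9% in either direction), with median differences in Ψ of 0.22 and −0.31 (quasi-binomial test with spread moderated by limma, Benjamini-Hochberg adjusted p below 0.05). Among the 5648 tested exons with Ψ of 0.95 or more in DMSO, the median Ψ was 0.768 and 0.839 at DRB 25, against 1.0 and 1.0 at DRB 10 and 1.0 and 1.0 in DMSO. In exons with Ψ below 0.5 in DMSO (2894) it was 0.09 and 0.114 at DRB 25, against 0.094 and 0.086 at DRB 10. An exon never skipped at DRB 10 or in DMSO could enter the test only through skipping reads at DRB 25, which sets its direction. Of the 4024 exons included less, 3005 had a pooled Ψ of 0.95 or more at DRB 10. Over the 3906 exons with skipping reads listed in each library the calls were near balance, with 418 included more and 456 less. Leaving out 1 library of either dose ended all exon calls, with lowest adjusted p between 0.0662 (without replicate 1 of DRB 10) and 0.131 (without replicate 1 of DRB 25), at 2817 to 4568 exons with unadjusted p below 0.05. Exons share junctions, and the 4024 lie in 1132 genes.

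The sequences of the splice sites that carry the clearest of these changes are shown from the GRCh37 genome, 5′ to 3′ on the strand of the gene, with exon bases in capitals and intron bases in lower case. The first lines are acceptors and donors of exons gained at DRB 25.
ORC3 acceptor: tgtagcatttatgttccaagGCA
ORC3 donor: AAGgtaagt
SON acceptor: tgtatggaaacttgtttcagGGC
SON donor: TAGgtatgt
SRSF3 acceptor: aaaaatgaaccccgttacagAGT
SRSF3 donor: CTAgtaagt
The next are those of exons lost at DRB 25, with the whole of the TRIM27 microexon.
TRIM27 acceptor: ttgctcttttattctttcagAAT
TRIM27 exon: AATTAAGAGAGGCTCAGTTATACTCAG
TRIM27 donor: CAGgtaggt
PUM3 acceptor: attgttttgttttgttgcagTCA
PUM3 donor: AAAgtaaga
HPS5 acceptor: ttctcttcacatgtttttagTGC
HPS5 donor: AGGgtaaga
In these 6 exons the intron ends in AG before the exon and begins with GT after it. Of the 18 intron bases counted upstream of the AG, pyrimidines made up 44.4% to 83.3% in the named gained exons with such ends (lowest in SRSF3, highest in RPS6KB1) and 55.6% to 88.9% in the named lost ones (lowest in SLMAP, highest in TRIM27), so that the ranges overlap. Over all exons, whatever their ends, the medians were 72.2% for those included more, 77.8% for those included less and 72.2% for those tested. Among exons with Ψ of 0.95 or more at DRB 10, the median was 77.8% both in those included less and in those tested.

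Some exons that were mostly skipped at DRB 10 were included in all or nearly all reads at DRB 25. The 72-nt exon of ORC3, of the origin recognition complex (chr6:88304260-88304331), had Ψ of 1.0 and 1.0 at DRB 25, against 0.132 and 0.087 at DRB 10 and 0.093 and 0.22 in DMSO, on 23 and 44 inclusion reads and no skipping reads at DRB 25, against 7 and 9 inclusion and 23 and 47 skipping reads at DRB 10 (log2 odds ratio 9.17 ± 2.63 SE, quasi-binomial adjusted p = 0.0117). A coding exon of SON, a splicing cofactor of nuclear speckles (chr21:34944857-34944936, 80 nt), had 1.0 and 0.727 at DRB 25, against 0 and 0 at DRB 10 and 0 and 0 in DMSO. Both had few reads, and SON rested on 15 and 16 inclusion reads at DRB 25. The largest gains also lay in RBM14, RPS6KB1, CTDSPL2, CCNL2, E2F4 and AP1G1, with Ψ between 0.667 and 1.0 at DRB 25 and at most 0.263 at DRB 10, although the ends of the RBM14 and E2F4 exons are not both splice sites of this kind. The exons of SON, RBM14, RPS6KB1 and CTDSPL2 had no inclusion reads at DRB 10 or in DMSO. They could enter the test only through inclusion reads at DRB 25, which set their direction.

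In the 8 exons with the largest losses Ψ was 0 in both DRB 25 libraries and 1.0 in both DRB 10 libraries. None of them had skipping reads at DRB 10, and only MALT1 had any in DMSO. They could enter the test only through skipping reads at DRB 25, which set their direction. The 27-nt coding exon of TRIM27, a ubiquitin ligase (chr6:28875013-28875039), had 0 and 0 inclusion against 9 and 9 skipping reads at DRB 25, but 77 and 91 inclusion and no skipping reads at DRB 10 (log2 odds ratio −13.61 ± 2.91). A coding exon of PUM3, an RNA-binding protein (chr9:2828675-2828778), had 6 and 16 skipping and no inclusion reads at DRB 25, and 44 and 49 inclusion reads with no skipping at DRB 10. In HPS5 (chr11:18333461-18333571), of organelle biogenesis, 6 and 7 skipping reads were set against 61 and 76 inclusion reads. So few reads at DRB 25 leave Ψ itself imprecise. SLMAP (chr3:57893611-57893733) and MALT1 (chr18:56401539-56401613) gave the same pattern with canonical sites, and TBK1, SLC35E2B and KIN with exons whose ends are likewise not both such sites, which can be first or last exons.

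**Figure D4:**
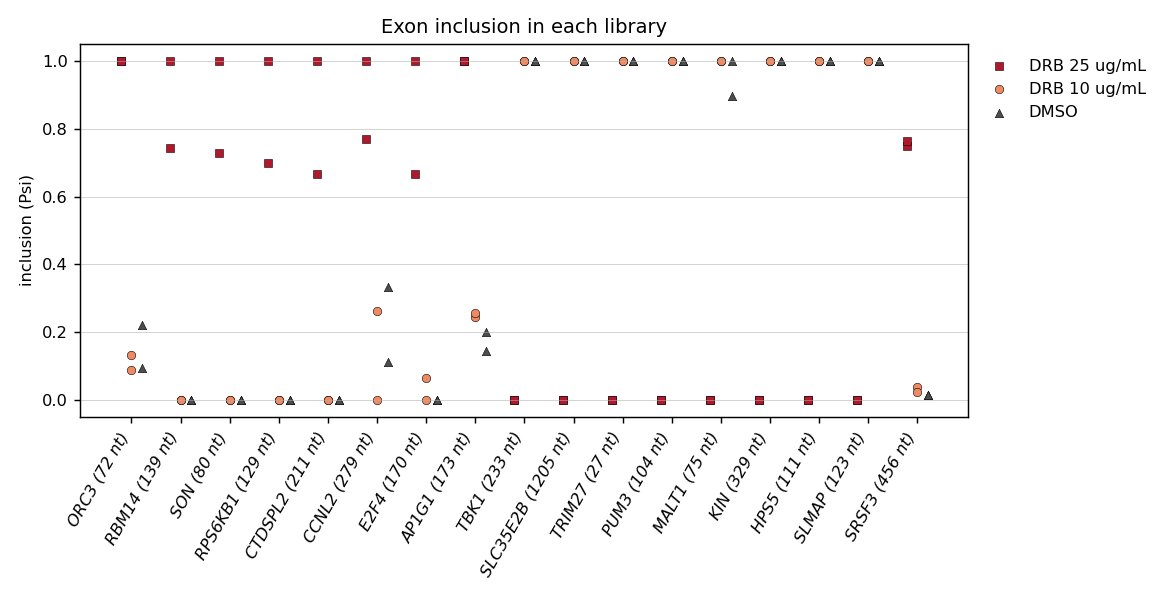
Inclusion level (Psi) of the 8 exons with the largest gains, the 8 with the largest losses and the SRSF3 exon, 1 symbol per library, with DRB 25, DRB 10 and DMSO from left to right for each exon and exon lengths in brackets. The gained exons lie at 0.667 or above at DRB 25 and at 0.263 or below at DRB 10, while the lost ones lie at 0 at DRB 25 and at 1.0 at DRB 10.

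Genes of splicing factors carried exon changes of their own. The 456-nt exon of SRSF3 (chr6:36567598-36568053), a cassette exon known to carry an early stop codon, had Ψ of 0.75 and 0.765 at DRB 25, against 0.039 and 0.022 at DRB 10 and 0.015 and 0.014 in DMSO (log2 odds ratio 6.68 ± 0.38, quasi-binomial adjusted p = 0.0117), on 54 and 104 inclusion reads at DRB 25, beside the lower gene sum given above. HNRNPH1 gained a 134-nt exon, with Ψ of 0.288 and 0.191, against 0.027 and 0.028 at DRB 10, and HNRNPD an exon of its 3′ UTR, with 0.460 and 0.511, against 0.082 and 0.106 at DRB 10 and 0 and 0 in DMSO. HNRNPDL lost a 171-nt coding exon, with 0.333 and 0.474 at DRB 25, against 1.0 and 1.0 at DRB 10, and SRSF5 a 202-nt one whose ends are not both canonical splice sites, with 0.457 and 0.644, against 1.0 and 1.0. A 26-nt exon of the 5′ UTR of HNRNPC had 0.627 and 0.643 at DRB 25, against 0.234 and 0.246 at DRB 10 and 0.631 and 0.667 in DMSO, on 319 or more reads of each kind in every library. It changed at the lower dose and was back at the DMSO level at the higher one. Of the exons tested in 10 SR genes, 9 of 55 were included more and 19 less, in 22 hnRNP genes 13 of 196 and 69, in 23 core spliceosome genes 4 of 89 and 46, and in 6 genes of splicing kinases and cyclins 11 of 60 and 44, against 6.93% and 37.0% of all exons tested.

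Exons with AG before and GT after (5987) had 5.8% more and 38.0% less included, against 8.33% and 35.7% of the 4888 with other ends. By length, 32.0% of such exons of 27 to 50 nts, 41.1% of 51 to 150 nts and 33.6% of over 150 and up to 300 nts were included less, and 3.7%, 4.74% and 8.26% were included more. The median GC content was 53.4% in exons included more, 46.4% in those included less and 49.4% in those tested. Among exons with Ψ of 0.95 or more at DRB 10 it was 46.0% in those included less and 47.2% in those tested, and among exons with Ψ below 0.5 at DRB 10 it was 54.3% in those included more and 52.4% in those tested. By dose, 3691 exons (33.9% of those tested) responded only to the higher dose, 416 with more and 3275 with less inclusion, and 0 turned direction. Exons never skipped at DRB 10 or in DMSO entered only through skipping at DRB 25, so this rule could take them only as less included. At DRB 10, 0 exons were included more and 3 less than in DMSO by the quasi-binomial test, while at DRB 25 these counts were 836 and 4722. The 2 counts of 0 depend on the test, since 2285 exons had an unadjusted p below 0.05 at DRB 10 against DMSO, and limma on log2 odds called 248 more and 716 less included there and 47 that turned.

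Unspliced reads changed in fewer places. The unspliced share of an intron is the part of the evidence at its sites that comes from reads running across them. Of 6892 introns tested, 462 (6.7%) were more unspliced and 184 (2.67%) less unspliced at DRB 25 than at DRB 10 (9.37% in either direction, quasi-binomial test with limma moderation). Between DRB 10 and DMSO 0 introns passed this test or limma on log2 odds, at 760 with an unadjusted p below 0.05. The median share among those more unspliced was 23.1% and 16.5% at DRB 25, against 0% and 0% at DRB 10 and 0% and 0% in DMSO. Introns with no unspliced reads at DRB 10 and in DMSO could be tested only if they had some at DRB 25. Leaving out any 1 of the 6 libraries ended all calls, with the lowest adjusted p between 0.0788 (without replicate 1 of DMSO) and 0.25 (without replicate 1 of DRB 25), at 1168 to 1770 introns with unadjusted p below 0.05.

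An intron of ZC3H18, an RNA processing factor (chr16:88636975-88643517), beginning 163 nts from the gene start, had an unspliced share of 71.4% and 67.6% at DRB 25, against 0% and 0% at DRB 10 and 0% and 0% in DMSO, on 25 and 25 unspliced and 5 and 6 split reads at DRB 25, against 50 and 76 split reads at DRB 10 (log2 odds ratio 10.12 ± 2.10, quasi-binomial adjusted p = 0.0134). An intron of MDM2, the ubiquitin ligase of p53 (chr12:69203073-69207333), beginning 1115 nts from the gene start, had 50.6% and 40.0% at DRB 25, on 45 and 48 unspliced and 22 and 36 split reads, against no unspliced and 98 and 94 split reads at DRB 10. In both introns neither end lies inside another annotated exon. TRIO had 48.1% and 63.2% at DRB 25, MACF1 30.4% and 54.5%, EML4 37.5% and 21.3% and PRRC2A 42.9% and 18.2%, each with 0% in the other 4 libraries. NAP1L4 (57.1% and 38.5%) and PTPN1 (55.1% and 36.2%) were alike, but their reads can come from an annotated exon that covers the acceptor in NAP1L4 and from an antisense exon at the donor in PTPN1.

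Of the introns less unspliced, one in AMIGO2, an adhesion molecule (chr12:47472849-47473244), had no unspliced and 321 and 344 split reads at DRB 25, against 26 and 10 unspliced and 42 and 24 split reads at DRB 10, which gives shares of 0% and 0%, against 23.6% and 17.2% at DRB 10 and 26.6% and 20.8% in DMSO (−9.51 ± 2.37, quasi-binomial adjusted p = 0.0140). Neither of its ends lies in another exon. WTAP had 0% and 0% at DRB 25, against 66.7% and 73.2% at DRB 10, and LAMB2 0% and 0%, against 48.4% and 56.2%, both with an end inside another annotated exon. ARL6IP4, PABPC4, PIEZO1 and GANAB also had an end inside another annotated exon, and SRP14 did not, with 0% and 0% at DRB 25, against 1.22% and 11.1% at DRB 10 and 0% and 0% in DMSO. Introns more unspliced had a median length of 1110 nts and lay a median of 14500 nts from the gene start, against 690 and 7650 nts for those less unspliced and 656 and 7270 nts for those tested. By dose, 203 introns (2.95% of those tested) responded only to the higher dose, 156 with a higher and 47 with a lower unspliced share. Introns without unspliced reads at DRB 10 and in DMSO could be taken only with a higher share. None turned direction by the test, at 108 that did with unadjusted p below 0.05. Of the introns less unspliced, 71.2% lay in genes whose sum was higher at DRB 25, against 33.3% of those more unspliced and 48.2% of those tested. Split reads enter both the unspliced share and the gene sum, so these measures are not independent.

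**Figure D5:**
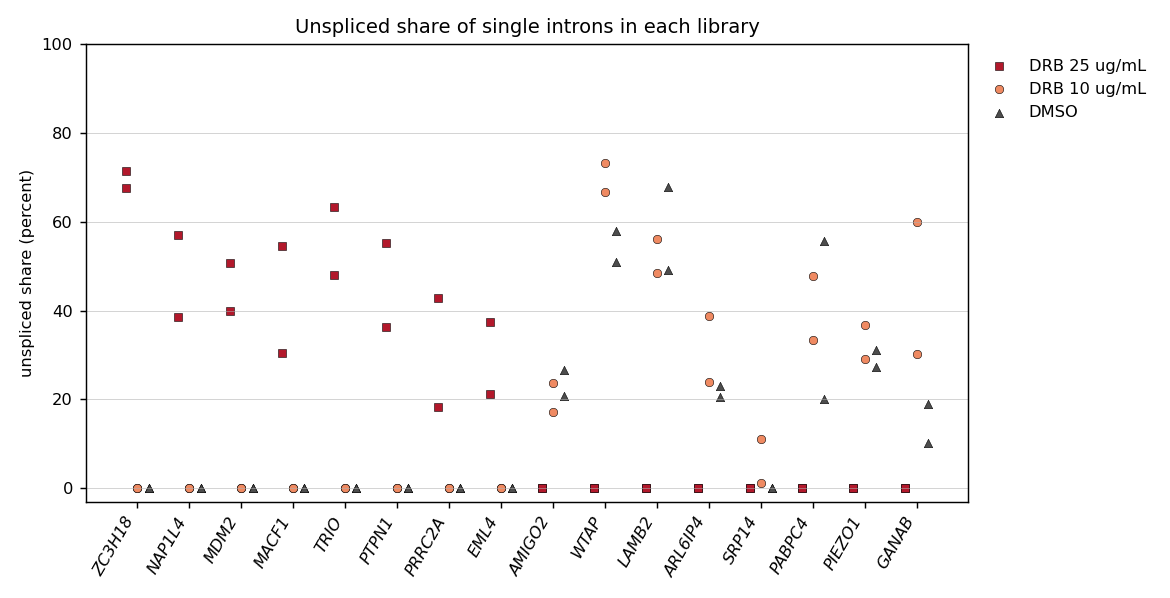
Unspliced share (percent) of the 8 introns with the largest gains and the 8 with the largest losses, 1 symbol per library, with DRB 25, DRB 10 and DMSO from left to right for each intron, named by gene. The gained introns lie between 18.2% and 71.4% at DRB 25 and at 0% in the other libraries, and the lost ones lie at 0% in both DRB 25 libraries.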

How the data were processed

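Poly(A)+ RNA of A549 cells was sequenced as 75-bp reads on an Illumina NextSeq500 from directional libraries, and STAR 2.7.3a is named in the submitters' processing notes. Alignments were to GRCh37. The authors deposited, per library, 1 annotation file made with their splicing pipeline IPSA, in which each intron and exon line carries whole read counts of several kinds inside a text field (other than a plain count table). For introns these deposited counts are split reads (nDA), unspliced reads at the donor (nD) and at the acceptor (nA) and reads of other junctions at either site, and for exons inclusion (inc), exclusion (exc) and retention (ret). The deposited score column was not used, and the strand setting of the counting was not stated. An intron was listed only with at least 3 split reads and at least 11 reads at its sites in all, and a junction with fewer than 3 reads was not counted.

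Introns and exons were assigned to GENCODE release 44 genes (GRCh37), with 87.1% of introns and 90.7% of exons matching exactly, and introns shared by several genes (2106 of 126404) were left out of gene sums. A gene was tested with at least 10 reads in 2 libraries and 15 in all, an exon with at least 10 reads in its Ψ denominator in each library and 10 of each kind over the fit, and an intron likewise with 10 reads. Ψ was inc/(inc+2exc), and the unspliced share was (nD+nA)/(nD+nA+2nDA). Gene sums were fitted with limma 3.58.1 (voom, TMM scaling, R 4.3.3) over the 6 DRB and DMSO libraries with 3 residual degrees of freedom. Exons and introns were fitted with a quasi-binomial model whose dispersion was moderated with limma. P-values were adjusted by Benjamini-Hochberg over all features, with a threshold of 0.05. The fits were tried on simulated data with a preset spread and without a listing minimum, so that trial does not cover the listing limit. For a gene at 0, a bound was computed against the most reads that its unlisted introns can hold, and every such bound, as every count, covers counting limits only. The dose limits were 0.5 (log2) for genes and introns and 0.1 for Ψ. Figures and tables were made with Python 3.11.15, pandas 2.3.3 and matplotlib 3.10.9.

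Genes named are the 15 highest rises and 15 largest falls past the threshold with at least 50 split reads on average whose doses do not overlap, up to 3 per list by size of change and 10 per dose pattern, and for exons and introns the 8 largest each way. Other members were named after their values were seen. The members and the 29 lists were chosen with earlier results of these data known. The replicates differed by more than sampling noise in each group (chi-squared per degree of freedom 17.3 at DRB 25, 7.06 at DRB 10 and 10.8 in DMSO). Alternatives tried were other sets of libraries, scalings, filters and tests, a replicate block, thinning to 1 total of reads and leaving out each library, and, chosen after results were seen, unlisted introns at their most reads and a spread taken only from groups that show one.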

Additional observations from a re-analysis of the deposited data

Results flagged for a closer look

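In the listed reads, the genes below lay on opposite sides of DMSO at the 2 doses, with each of the 3 contrasts past limma's threshold. All held at the listing limit for DRB 25 against DRB 10, while the contrasts with DMSO were not tested there. The 3 contrasts share libraries. They are those with the largest fitted change among the genes that turned past DMSO over all listed introns, with upward ones added after their values were seen, and where a gene was at 0 the bound given is smaller than the changes of some genes not listed here. Values are CPM over all listed introns, and each change is a log2 fold change of DRB 25 against DRB 10.

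GCLC, of glutathione synthesis, was listed at 0 and 0 at DRB 25, against 189 and 191 at DRB 10 and 113 and 92.9 in DMSO, with a bound of −1.875 on its change. ACD, a telomere protein, was listed at 0 and 0 at DRB 25, against 95.8 and 84.4 at DRB 10 and 59.6 and 49.1 in DMSO (a bound of −1.247). In the opposite direction, PTGS2, cyclooxygenase, had 38.0 and 39.9 at DRB 25, against 0 and 0 at DRB 10 and 8.36 and 2.15 in DMSO (a bound of 1.147). Its unlisted introns could hold more at DRB 10 than its low DMSO values, so a turn of PTGS2 is not shown. GCLC, ACD and PTGS2 had no intron listed in every library.

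The remaining 8 were low at DRB 10 and highest at DRB 25. ZDHHC2 had 127 and 93.2 at DRB 25, against 10.3 and 3.77 at DRB 10 and 50.6 and 56.0 in DMSO (4.072). MOK, a kinase, had 217 and 217 at DRB 25, against 18.7 and 17.1 at DRB 10 and 63.6 and 64.4 in DMSO (3.602). ITGBL1 changed by 3.265, but by only 0.891 over its 1 common intron, where it did not turn. The noncoding RNA CRNDE changed by 3.226 and PROS1, protein S of coagulation, by 3.221, with 107 and 101 at DRB 25, against 14.1 and 8.91 at DRB 10 and 59.4 and 38.6 in DMSO. C12orf75 changed by 3.213, IGFBP4 by 2.722 and TMSB10 by 2.613, and their CPM over the common introns are given with the genes that turned.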

How the results depend on the processing

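The count of genes called (6018) changed to 3049 (1446 higher, 1603 lower) over the introns listed in every library and to 2346 (1576 and 770) with unlisted introns at their most reads, and to between 2568 and 5506 when 1 library was left out. It stayed within 1.5 times of the main count with only the 4 DRB libraries (5610), all 10 libraries (6188), total split reads (6731), median of ratios (6206), no filter (5878), limma trend (5431) and thinning the listed reads to the total of the smallest library (5903), which leaves the number of listed introns unequal. Genes that responded only to the higher dose numbered 1570 over the introns listed in every library and 1287 to 2468 with 1 library left out. Turning genes (431) numbered 712 with all 10 libraries, 649 with total split reads, 595 over the common introns and 0 to 660 with 1 library left out.

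Exon calls (4778) were 0 with no filter (of 104862 exons, 6448 with unadjusted p below 0.05) and 874 (418 more, 456 less) where skipping reads were listed in every library, and 0 to 3453 with 1 library left out. They stayed within 1.5 times with only the 4 DRB libraries (3595), all 10 libraries (5432), a denominator of 30 (3246), limma on log2 odds (4921) and Fisher's test on pooled reads (7035). Exons that responded only to the higher dose numbered 0, and turning exons 0, without any 1 library. Turning exons numbered 22 with all 10 libraries and 19 with the spread taken only from groups that show one. Intron calls (646) were 0 with only the 4 DRB libraries (1818 unadjusted), 1097 (758 and 339) with all 10 libraries, 258 with a minimum of 30 reads, 0 with no filter (1838 unadjusted), 248 with nD alone, 335 with nA alone, 312 as sums per gene, and 0 without any 1 library, as were both dose patterns. With all 10 libraries 357 introns responded only to the higher dose and 2 turned, and 6 turned with the spread taken only from groups that show one. With that spread, leaving out 1 library left 1791 to 3628 exons less included and 49 to 562 introns more unspliced.

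Deviations of replicates with the same number were weakly correlated over 6689 genes. The correlation was 0.0658 between DRB 25 and DRB 10, 0.0207 between DRB 25 and DMSO and 0.181 between DRB 10 and DMSO. These values cover genes and not exons or introns. Whether replicates with the same number were handled together is not stated and was not tested. With the replicate block there were 5411 gene calls, 272 turning genes, 0 exon calls (4520 unadjusted) and 0 intron calls (1476 unadjusted), and hence 0 exons and 0 introns that responded only to the higher dose.

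For genes and features named by the rules, 1909 alternative values kept their side of the threshold, 18 passed it, 417 no longer passed and 30 reversed, all 30 with unlisted introns at their most reads, which adds up to 10 reads an intron to DRB 25. These log2 fold changes were 0.053 for RNF213, 0.111 for USP24, 0.285 for UTP20, 0.062 for LARP7, 0.408 for CDK12, 0.212 for MED14, 0.911 for MED12, 0.887 for INTS7, 0.348 for DHX8, 1.181 for SRPK2, 1.009 for NBAS, 0.265 for UPF3B, 0.196 for POLH, 0.45 for FAS, 0.904 for BOK, 0.464 for BCL2L13, 0.728 for AKR1C3, 0.088 for DNAJC3, 0.63 for SNHG12, 1.343 for STAT2, 0.499 for CHD1, 0.323 for NSD1, 0.046 for ZNF76, 0.85 for ZNF106, 0.027 for RPTOR, 0.569 for NBEAL2, 0.377 for ATG2A, 0.108 for MAST2, 0.433 for DIP2B and 0.407 for CEP164. HERC2, named after its values were seen, was at 0.384 there. The causes of the other changes were not tested. With 2 libraries a group, and fewer reads at DRB 25, single exons and introns of low counts are imprecise.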
